A study of Mus musculus with 9 samples.

Results

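Of the 24532 genes in the deposited table, 3822 carry only RefSeq transcripts of the noncoding kind (accessions that begin with NR), and 258 of these averaged at least 100 estimated reads over the 9 liver libraries. These 258 well expressed noncoding RNA genes are described here, with H19 and Hnf4aos left out by the rule. All 258 passed the filter on low counts that left 14731 genes for testing. They were chosen by the mean count over all libraries, so their abundance is a description, and the differences between groups were not part of the rule. Just inside the threshold stood 9430037G07Rik (101.9 reads), Snord104 (101.8), Dreh (101.4) and Gm16740 (101.1), and just outside stood Carmn (99.4), Gm11266 (97.9), Hist1h2al (96.6) and 4930480G23Rik (96.3). In 225 of the genes the mean reached 100 reads in all 3 groups, in 26 it did so in 2 groups and in 7 it did so in 1 group. These 7 were 1700018L02Rik, 3110045C21Rik, A930004D18Rik, Ggnbp2os, Gm16740, Gm20257 and Snord104. Their entry leaned on the group where they were highest, so their differences between groups are not independent of the rule.

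The livers came from wild-type C57BL/6 mice, and every mouse had received thioacetamide (TAA), a hepatotoxin that scars the liver, by escalating intraperitoneal doses for 10 weeks. The TAA group (replicates 12, 13 and 14) received saline. The 2-week group (replicates 17, 18 and 19) received recombinant human cytoglobin (rhCYGB), a haem protein given here by tail vein at 2 mg/kg, during the last 2 weeks of TAA. The 5-week group (replicates 23, 27 and 28) received the same dose during the last 5 weeks. There are 3 libraries in each group, no liver free of TAA is included, and nothing in the labels says whether the 3 numbers of a group are 3 mice. The p-values therefore rest on the spread among libraries, which may be technical.

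Noncoding RNA genes are a mixed class. Long noncoding RNAs (lncRNAs) are spliced and polyadenylated like messenger RNA and can organise nuclear bodies, act on neighbouring genes, or serve mainly as hosts whose introns release small nucleolar RNAs or microRNAs. Processed pseudogenes are copies of a messenger RNA pasted back into the genome, often so close to the parent gene that short reads fit either copy. In liver, lncRNAs are studied as regulators of lipid metabolism, regeneration and stellate cell activation, the step that drives scar formation.

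By the RefSeq classes, 181 of the 258 genes were lncRNAs, 58 were pseudogenes, 9 are now annotated as coding, 5 were small RNAs (Mir703, Mir3064, Mir6236, Snora65 and Snord104) and 5 had no entry. Compared with the GENCODE M21 annotation of the same build, 156 shared no exon base with a coding gene. A further 59 shared exon bases with a coding gene on the opposite strand, 17 with one on the same strand, 13 were placed at a coding gene away from their own locus, and 13 matched no GENCODE gene. The libraries held 55655727 to 87289945 estimated reads, and the 258 genes took 0.809% to 1.03% of them. Replicates 17 and 18 lay on one side of the first principal component of all genes (32.3% of the variance) and replicate 23 far on the other side. The median within-group SD of log2 CPM was 0.289 for the noncoding genes and 0.261 for all tested genes. The labelled tissue was borne out by 11 hepatocyte markers that summed to between 112049 and 166002 CPM (the CPM scale of edgeR, with TMM library sizes) in every library. Their sums were 112049 to 124567 CPM in TAA, 128100 to 166002 CPM at 2 weeks and 127329 to 165940 CPM at 5 weeks, so both rhCYGB groups lay above TAA on this scale. The TMM factors were 1.106 to 1.178 in TAA and 0.8431 to 1.036 in the rhCYGB libraries. That order depends on this scaling, because on library totals alone the groups overlap. Of the 11 markers, 0 were called by edgeR at 2 weeks (5 higher at an unadjusted p under 0.05, 3 by DESeq2) and 1 was higher at 5 weeks, and their part in the rises described below was not tested.

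Per length, the 3 most abundant rows of the class (Gm5424, Gm15772 and Oaz1-ps) were pseudogene rows that the deposited table places on their parent coding genes. Gm5424 is a processed copy of Ass1, the argininosuccinate synthetase of the urea cycle, and RefSeq puts it on chromosome 10. The table lists it at chr2:31470308-31520629 (mm10), the Ass1 locus. The 1240 aligned bases of the copy were 99.516% identical to Ass1, with 6 mismatches. The stretches below, read from the GRCm38 genome at GENCODE exons on the plus strand, show how little a read has to separate the copies, and the capital marks the 1 base that differs in each 60. The first lies at chr2:31488578-31488637 in a coding exon of Ass1 and the second at chr10:62071543-62071602 in Gm5424.
Ass1 coding exon: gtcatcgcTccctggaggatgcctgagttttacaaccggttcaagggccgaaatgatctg
Gm5424 own copy: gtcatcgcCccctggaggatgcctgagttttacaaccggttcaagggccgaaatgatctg

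Gm5424 measured 3368, 2406 and 2741 CPM in TAA, 2992, 3961 and 3936 CPM at 2 weeks and 2538, 3249 and 3239 CPM at 5 weeks. These groups overlapped, and Gm5424 alone made up 28% to 39.6% of the reads of all 258 genes. The row named Ass1 held only 5.11 to 20.6 CPM, so that Gm5424 took 99.5% to 99.8% of the reads of the pair in every library. The log2 difference of the summed pair was 0.36 ± 0.18 (SE) at 2 weeks (adjusted p = 0.25) and 0.08 ± 0.18 at 5 weeks (adjusted p = 0.848).

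Other parents were covered by pseudogene rows in the same manner. Gm15772 took 99.7% to 99.8% of the reads it shared with the ribosomal protein gene Rpl26, Gm6644 took 98.6% to 99.9% of those shared with the aldose reductase Akr1b3, and Oaz1-ps took 98.4% to 99.0% of those shared with Oaz1, the antizyme that controls polyamine synthesis. BC002163 took 92.3% to 95.3% beside Ndufs5, Nutf2-ps1 took 83.2% to 91.6% beside Nutf2, and Gm7334 took 72.6% to 79.3% beside Btg3. The share was smaller for Gm13363 beside Ptp4a1 (34.6% to 55.2%), Gm6793 beside Hnrnpa3 (11.7% to 20.8%) and Gm12669 beside Glrx3 (3.31% to 14.4%). For the 6 rows from Gm15772 to Gm7334 the pseudogene row held most of the reads in all 9 libraries, although its name points to the copy and not to the parent.

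In 4 further pairs the division switched from library to library. Atp6v0c-ps2, a copy of the proton pump subunit Atp6v0c, held 0.0650, 136.6 and 0.0824 CPM in TAA, 0.124, 0.0380 and 147.2 CPM at 2 weeks and 0.0309, 156.5 and 142.8 CPM at 5 weeks. The Atp6v0c row held 139.3, 3.45 and 147.2, then 153.4, 145.4 and 3.47, then 149.9, 2.34 and 2.65 CPM in the same order. The 2 rows mirrored each other, and their sum stayed between 139.4 and 158.8 CPM with a log2 difference of 0.08 ± 0.10 at 2 weeks. Gm9855, a copy of the DNA glycosylase gene Tdg, was listed at 0 in 6 libraries (replicates 12, 14, 17, 18, 19 and 27) and held 8.15, 13.4 and 8.15 CPM in replicates 13, 23 and 28. Apoo-ps took between 0.149% and 42.6% of the reads shared with Apoo.

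Gm10052, a copy of the splicing factor gene Hnrnpa1, was the pair where the division mattered most for a comparison. Its row held 76.5, 75.6 and 72.4 CPM in TAA, 3.02, 44.3 and 46.0 CPM at 2 weeks and 65.4, 47.7 and 59.0 CPM at 5 weeks. The Hnrnpa1 row held 13.1, 11 and 12.9, then 48.4, 10.7 and 11.1, then 8.05, 28.8 and 8.15 CPM. Neither row was called at 2 weeks: Gm10052 had a log2 difference of -1.27 (adjusted p = 0.286) and Hnrnpa1 of 0.92 (adjusted p = 0.400). Their sum was 89.6, 86.6 and 85.3 CPM in TAA, 51.4, 55.0 and 57.1 CPM at 2 weeks and 73.5, 76.5 and 67.2 CPM at 5 weeks. All 2-week sums lay below all TAA sums, and when rows were added before the fit, a step chosen after seeing the data, the Hnrnpa1 sum fell by 0.68 ± 0.10 on the log2 scale (adjusted p = 0.0229).

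The lncRNA row Dpm1-adnp, a readthrough transcript that runs from Dpm1 into Adnp, showed the opposite case. It was listed at 0, 36.9 and 0 CPM in TAA, at 56.4, 57.8 and 57.8 CPM at 2 weeks and at 14.4, 59.0 and 0 CPM at 5 weeks. The Adnp row, for a homeobox protein, held 25, 17.7 and 23.5 CPM in TAA, 0, 0.0380 and 0.146 CPM at 2 weeks and 26.3, 0 and 30.8 CPM at 5 weeks. Taken alone, Adnp passed edgeR's test at 2 weeks (adjusted p = 0.0396), whereas Adnp and the readthrough together differed by 0.74 ± 0.33 with an adjusted p of 0.207. The Dpm1 row moved with the readthrough too, at 35.8, 9.68 and 31.1, then 13.1, 6.33 and 11.4, then 43.1, 15.7 and 48.9 CPM. Dpm1 and the readthrough summed to 35.8, 46.6 and 31.1, then 69.4, 64.2 and 69.2, then 57.5, 74.7 and 48.9 CPM. Those sums lay above TAA in every rhCYGB library and were not tested. An all-or-none rule (1 library of a group under 0.5 CPM and another above 5 CPM) was met by 6 noncoding genes: Atp6v0c-ps2, Gm9855, Apoo-ps, Dpm1-adnp, Rnf8-cmtr1 and Ces2d-ps. The rule does not look at a partner row, and for Ces2d-ps no row at a shared locus was compared. Beside Rnf8-cmtr1, Rnf8 stayed between 12.2 and 14.1 CPM. Cmtr1 was lowest in replicates 27 and 19 (32.1 and 38.5 CPM), where the readthrough was highest (11.4 and 12.8 CPM). By edgeR none of these 6 was called in a comparison. DESeq2 called Gm9855 lower than TAA at 2 weeks and higher at 5 than at 2 weeks.

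**Figure D1:**
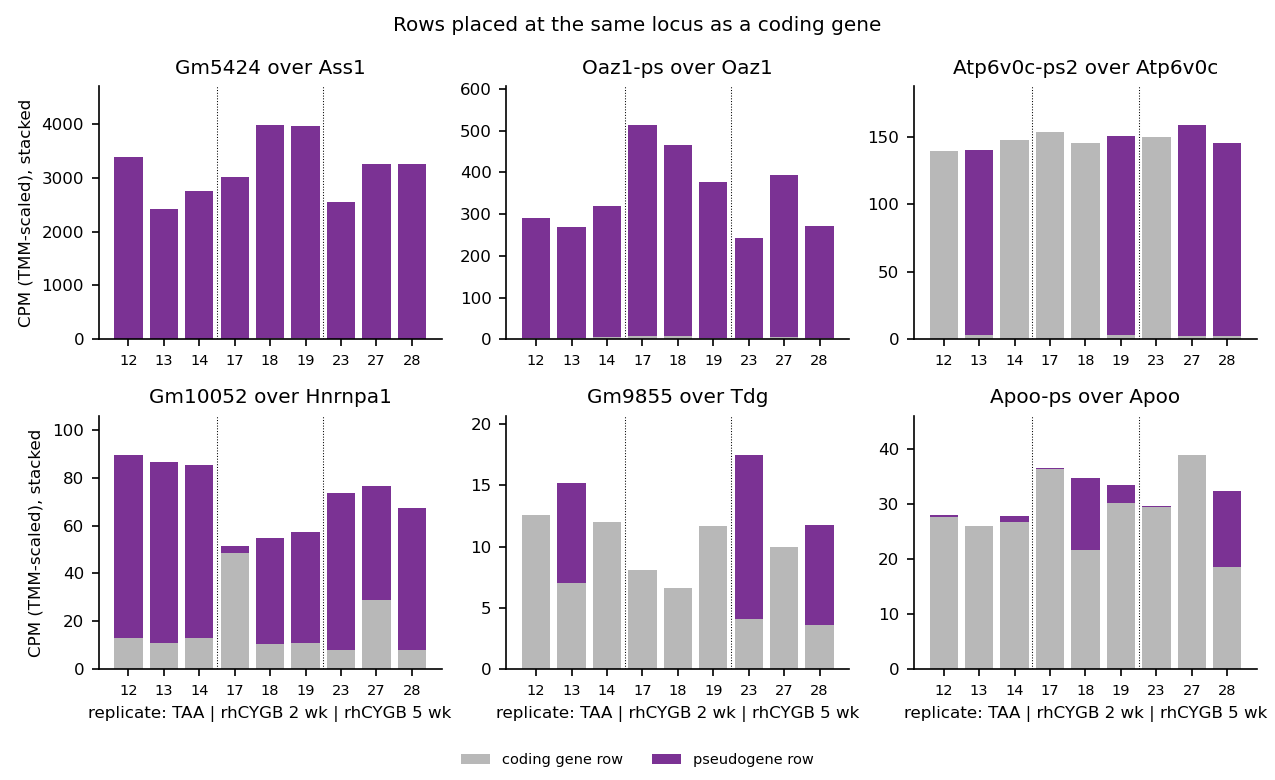
Stacked bars give the CPM of a pseudogene row (purple) on top of the row of its parent coding gene (grey) in each of the 9 libraries, with dotted lines between the groups. Gm5424 and Oaz1-ps took nearly all reads of their loci in every library, the Atp6v0c locus kept a sum of 139.4 to 158.8 CPM while the division switched, and the Hnrnpa1 locus was lower in all 2-week libraries than in all TAA libraries.

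Placement on the parent was not the only source of shared sequence. Of 232 genes with a GENCODE sequence of their own, 28 matched another coding gene at 90% identity or more over at least 80% of their length. Gm12070 was 99.9% identical to Gapdh, Gm3219 matched a stretch of Bcl7c without a mismatch (100% over 303 bases), and all 1926 aligned bases of Gm10768 lay in a transcript of Abcc2, the canalicular bilirubin glucuronide pump. Mir703 matched Eef1a1 at 98.2% over 109 bases. The log2 differences at 2 weeks were 0.58 for Gm12070 and 0.49 for Gapdh, and at 5 weeks they were 0.52 for Gm10768 and 0.60 for Abcc2. Other rows differed from the coding gene they matched. At 2 weeks 3000002C10Rik had -0.15 and Gapdh (94.5%) 0.49, and Gm6548 had -0.41 and Eef1a1 (96.7%) 0.24. Gm5801 had 0.92 and Ube2j2 (99.2% identical) -0.00, but the Gm5801 row does not measure a single copy. It joins entries on chr4 and chr14, which held means of 97.2% and 2.75% of its reads. Gm1821 likewise joins entries on chr11 (58.8%) and chr14 (41.2%). By RefSeq, 5 rows were placed at their own and other loci. How far reads of a copy and of its coding gene were separated was not tested.

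Per length, which allows levels of different genes to be compared, the highest mean FPKM values were those of Gm5424 (2000), Gm15772 (755.5), Oaz1-ps (347.1), Rn45s (296.5), Gm1821 (197.2) and Gm12070 (125.8). The ribosomal RNA precursor Rn45s lacks a full poly(A) tail, and poly(A) selection leaves only part of it. Rn45s measured 1656, 1269 and 1507 CPM in TAA, 2630, 2606 and 1571 CPM at 2 weeks and 1644, 1834 and 1357 CPM at 5 weeks, or 15.3% to 24.6% of the reads of the 258 genes. Replicates 17 and 18 stood above all others and replicate 19 did not (adjusted p = 0.123 at 2 weeks). Among lncRNAs, the highest mean CPM values were 196.2 for Gm10768 (whose sequence lies in an Abcc2 transcript), 194.8 for the paraspeckle scaffold Neat1 and 148.6 for BC024386, and Mug-ps1, a murinoglobulin pseudogene, had 153.3.

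The first comparison asked which noncoding genes differed after rhCYGB in the last 2 weeks of TAA. In edgeR's quasi-likelihood test, with p-values adjusted by Benjamini and Hochberg's method across the 14731 genes and a call below 0.05, 7 of the 258 rose and 0 fell: D130020L05Rik, Marcksl1-ps4, AW112010, 5033403H07Rik, Gm16157, Gm10658 and Gm4956. This is 2.71% of the noncoding genes, and 3.31% of all tested genes were called (1.98% higher and 1.34% lower). At an unadjusted p under 0.05, 48 were higher (18.6%, against 12.9% of all tested genes) and 6 lower (2.33%, against 10.5%), and DESeq2 called 25 higher and 3 lower. DESeq2 called 1713 of the 14731 tested genes in this comparison. The 2-week libraries lay wholly above TAA for 58 genes (22.5%, against 17.3% of all tested genes) and wholly below for 19 (7.36%, against 16.3%). The median log2 difference was 0.19 for the noncoding genes and -0.03 for all tested genes.

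That lean towards higher values depended on the scaling. It was kept with upper quartile scaling (5 higher, 0 lower, median 0.12) and with DESeq2's size factors (median 0.19). With libraries scaled by their totals alone, 5 noncoding genes were higher and 12 lower, and the median was -0.15 where that of all genes was -0.36. That fit called 1722 of all tested genes. The log2(FPKM + 1) values gave 6 higher and 18 lower, with 1983 of all tested genes called. Relative to all genes the noncoding median was higher on both count scales. With the trend over transcript length removed, as described below, the medians lay closer, at 0.11 for the noncoding genes and 0.06 for all tested genes. The calls also rested on few libraries, over all tested genes as well as here. Without replicate 13, 14, 17 or 18, 0 remained (1, 2, 5 and 3 calls over all tested genes). Without replicate 12 there were 2 (31 over all) and without replicate 28 there were 3 (169 over all). Without replicate 19, 7 came (368 over all), 5 of them among the 7 named. Without replicate 23, 14 came (12 higher, 2 lower, 1095 over all), and without replicate 27, 11 (888 over all). With replicates 17, 18 and 23 left out together, 0 remained (12 over all). The main fit called 488 over all tested genes. By class, 5 of the 7 were lncRNAs and 2 (Marcksl1-ps4 and Gm4956) were pseudogenes.

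AW112010, at chr19:11047612-11050566 on the minus strand, is an interferon-responsive transcript of activated macrophages and T cells in which a noncanonical reading frame has been found to be translated. It measured 44.0, 37.9 and 45.9 CPM in TAA, 117.4, 95.7 and 87 CPM at 2 weeks and 51.3, 87.8 and 65.3 CPM at 5 weeks. All libraries of both rhCYGB groups stood above all TAA libraries. The rise was 2.35-fold at 2 weeks (log2 change 1.23 ± 0.20, adjusted p = 0.0245), and the 5-week difference of 0.68 was not called (adjusted p = 0.116). The 10 T and NK cell markers, of which 3 were called higher at 2 weeks, summed to 4.97 to 7.33 CPM in TAA, 15.8 to 32.7 CPM at 2 weeks and 5.69 to 23.9 CPM at 5 weeks. Macrophage markers summed to 658.3 to 705.0, 536.2 to 866.5 and 467.4 to 564.2 CPM in the same order. No defining marker of either list was under 0.05 CPM, and their part in the difference was not tested. In bulk liver, fewer cells of a type and less RNA per cell cannot be told apart.

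5033403H07Rik, an lncRNA of unassigned function at chr5:52973012-52992292 on the minus strand, measured 14.1, 11.8 and 17.6 CPM in TAA, 46.7, 31.3 and 32.9 CPM at 2 weeks and 13.2, 23.9 and 15.4 CPM at 5 weeks. The 2-week libraries stood apart from both other groups, while the TAA and 5-week libraries overlapped. It rose 2.55-fold at 2 weeks (1.35 ± 0.25, adjusted p = 0.0295), and the 5-week difference from TAA was 0.27 (adjusted p = 0.603). The 5-week against 2-week difference was -1.08 ± 0.25 and was not called (adjusted p = 0.142).

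RefSeq start sites (GRCm38.p6) gave a promoter window, from 250 bases before to 50 bases after the start, for 164 of the 258 genes, among them 7 of the 9 called in either comparison with TAA. Shown here are the windows of AW112010 and 5033403H07Rik, lncRNAs that rose at 2 weeks and share no exon base with a coding gene, and of 0610031O16Rik, which rose at 5 weeks, at chr19:11050517-11050816, chr5:52992243-52992542 and chr3:138239614-138239913, all on the minus strand and read 5′ to 3′. Capitals mark matches to any of 6 motifs searched on both strands, chosen with the sequences in view.
AW112010: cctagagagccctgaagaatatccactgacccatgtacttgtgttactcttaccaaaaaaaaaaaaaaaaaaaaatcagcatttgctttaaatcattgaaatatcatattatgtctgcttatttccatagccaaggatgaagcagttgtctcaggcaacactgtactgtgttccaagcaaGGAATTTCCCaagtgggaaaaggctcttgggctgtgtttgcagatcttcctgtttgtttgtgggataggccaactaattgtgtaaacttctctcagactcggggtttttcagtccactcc
5033403H07Rik: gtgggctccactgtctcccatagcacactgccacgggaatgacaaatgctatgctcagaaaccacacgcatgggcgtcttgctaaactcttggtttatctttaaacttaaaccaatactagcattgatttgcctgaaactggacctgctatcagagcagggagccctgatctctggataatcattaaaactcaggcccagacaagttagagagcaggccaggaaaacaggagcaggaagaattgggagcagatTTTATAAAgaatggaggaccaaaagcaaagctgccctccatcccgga
0610031O16Rik: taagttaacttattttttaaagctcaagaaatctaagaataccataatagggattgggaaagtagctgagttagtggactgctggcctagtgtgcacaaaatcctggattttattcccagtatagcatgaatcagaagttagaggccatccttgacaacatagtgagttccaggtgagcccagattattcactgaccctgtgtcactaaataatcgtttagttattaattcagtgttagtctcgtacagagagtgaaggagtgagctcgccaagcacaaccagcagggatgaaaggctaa

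AW112010 has 1 match to the NF-kB consensus searched (GGGA, any 2 bases, TTCC), which ends 61 bases before the start and stands in 1.47% of all 32851 windows. 5033403H07Rik has overlapping matches to TATAAA on both strands, from 3 to 10 bases after the start, a motif found in 13.6% of windows. 0610031O16Rik has none of the 6. The remaining motifs were TTCNNNGAA (GAS, 8.3% of windows), GAAA, any 2 bases, GAAA (ISRE, 3.44%), TGACNNNGC (ARE, 12.4%) and CACGTG (E-box, 7.15%). A match is a description of letters and shows no binding.

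D130020L05Rik, an lncRNA at chr12:101082451-101088927 on the plus strand, runs antisense to the phosphatase subunit gene Ppp4r3a (Smek1 in the table) and shares 1252 exon bases with it. It measured 4.24, 4.22 and 4.68 CPM in TAA, 11.6, 11.5 and 9.73 CPM at 2 weeks and 8.81, 8.98 and 7.63 CPM at 5 weeks. Both rhCYGB groups lay above TAA with no overlap, and the 2-week libraries lay above the 5-week libraries. The rise was 2.49-fold at 2 weeks (1.32 ± 0.14, adjusted p = 0.0138) and 1.93-fold at 5 weeks (0.95 ± 0.14, adjusted p = 0.0361). Smek1 measured 57.5, 35.7 and 56.3 CPM in TAA, 24.4, 16.3 and 26.2 CPM at 2 weeks and 70.5, 27.3 and 63.2 CPM at 5 weeks. Its 2-week libraries lay below TAA, the other direction from the antisense RNA, with a log2 difference of -1.16 that was not called (adjusted p = 0.0869). The strand setting of the counting is not given in the sources used here, so whether reads from the shared bases were kept apart is not known.

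Marcksl1-ps4 is a processed pseudogene at chr13:4248735-4249777 on the plus strand, and 291 of its bases lie in a transcript of Akr1c19, an aldo-keto reductase gene whose deposited locus ends 376 bases away. It measured 11.7, 10.4 and 10.9 CPM in TAA, 22.2, 18.7 and 18.7 CPM at 2 weeks and 22.9, 20.2 and 18.4 CPM at 5 weeks. The rhCYGB groups overlapped each other and lay above TAA. It rose 1.80-fold at 2 weeks (0.85 ± 0.13, adjusted p = 0.0240) and 1.86-fold at 5 weeks (0.90 ± 0.13, adjusted p = 0.0361). The neighbouring aldo-keto reductases were higher too: at 2 weeks the log2 difference was 0.73 for Akr1c19 (adjusted p = 0.0505, not called), 0.60 for Akr1c12 (adjusted p = 0.0281) and 0.86 for Akr1c13 (adjusted p = 0.0377). Reads of the pseudogene and of the Akr1c19 transcript cannot be told apart over the shared bases.

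Gm4956, a pseudogene at chr1:21285246-21298312 on the minus strand, lies 19671 bases from the glutathione transferase gene Gsta3. It measured 8.65, 2.89 and 4.15 CPM in TAA, 14, 16.9 and 19.5 CPM at 2 weeks and 15.4, 14 and 8.05 CPM at 5 weeks. The 2-week libraries stood above all TAA libraries, and 5-week replicate 28 fell within the TAA range. Gm4956 rose 3.22-fold at 2 weeks (1.69 ± 0.39, adjusted p = 0.0473), the largest rise among the 7, with a range of 1.38 to 2.24 when single libraries were left out. Gsta3 rose from 1371 ± 219.7 to 2518 ± 157.1 CPM (SD, n = 3 in each group, log2 change 0.88 ± 0.16, edgeR adjusted p = 0.0275).

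Gm16157 at chr7:68266339-68276594 and Gm10658 at chr9:57056897-57071966, lncRNAs on the minus strand, rose by less. Gm16157 measured 5.28, 4.50 and 5.60 CPM in TAA, 9.20, 10.3 and 8.38 CPM at 2 weeks and 6.71, 8.04 and 6.32 CPM at 5 weeks (1.81-fold at 2 weeks, adjusted p = 0.0299). Gm10658 measured 4.16, 4.51 and 5.12 CPM in TAA, 8.84, 7.12 and 6.99 CPM at 2 weeks and 6.31, 6.67 and 6.06 CPM at 5 weeks (1.66-fold at 2 weeks, adjusted p = 0.0405). In both, the 5-week libraries lay between the other groups without overlap, and neither was called at 5 weeks. Gm16157 shares 78 bases antisense with Fam169b and Gm10658 shares 170 bases antisense with the tyrosine phosphatase Ptpn9, whose own log2 differences at 2 weeks were 0.15 and -0.16.

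**Figure D2:**
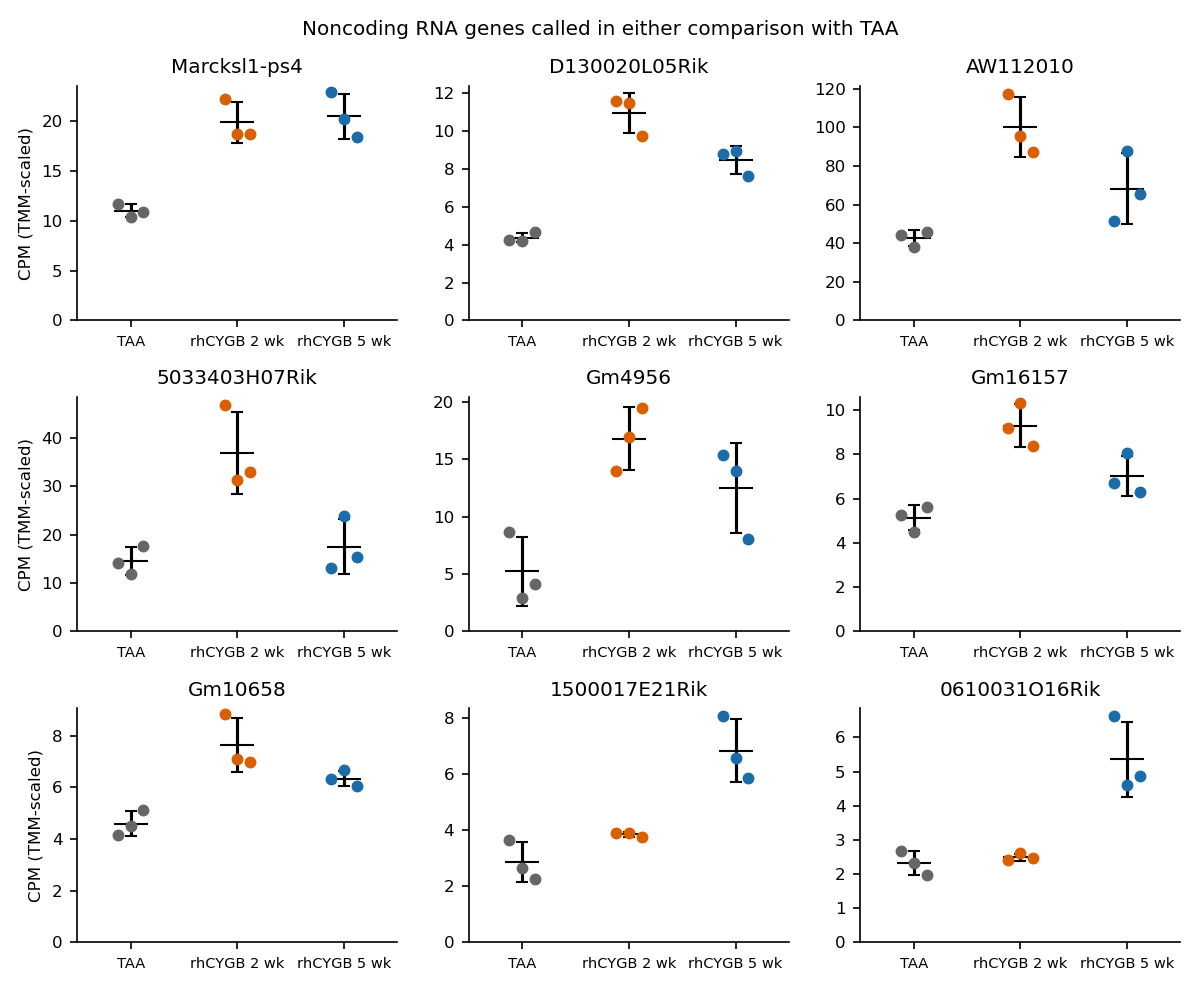
Points give the CPM of each library for the 9 noncoding genes called in either comparison with TAA, the horizontal bar gives the group mean and the error bar the SD (n = 3), on axes that start at 0. All 9 lay higher than TAA where called, and 5033403H07Rik was near its TAA level (14.1, 11.8 and 17.6 CPM) at 5 weeks.

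Among genes that were not called, the largest 2-week differences with separate groups were those of Dpm1-adnp, described above, and of 1110020A21Rik (1.01 ± 0.31, adjusted p = 0.0982) on the higher side. On the lower side, after Gm10052, came Gm12603 (-1.01 ± 0.47, adjusted p = 0.230), A930004D18Rik (-0.88 ± 0.21, adjusted p = 0.0521), Zfp862-ps (-0.70 ± 0.25, adjusted p = 0.131), 2810002D19Rik (-0.57 ± 0.23, adjusted p = 0.169) and Ftx (-0.49 ± 0.23, adjusted p = 0.232). A930004D18Rik, which reached a mean of 100 reads in 1 group only, measured 1.98, 2.29 and 2.43 CPM in TAA, 1.05, 1.36 and 1.22 CPM at 2 weeks and 1.57, 1.35 and 1.45 CPM at 5 weeks. It was lower in every rhCYGB library than in every TAA library, and it was called lower at 2 weeks by DESeq2 and with scaling by library totals.

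The second comparison, rhCYGB in the last 5 weeks against TAA, uses the same TAA libraries as the first. Of the 258 genes 4 rose and 0 fell (1.55%, where 1.29% of all tested genes were called, 0.686% higher and 0.604% lower). These were D130020L05Rik and Marcksl1-ps4, with values given above, 1500017E21Rik and 0610031O16Rik. At an unadjusted p under 0.05, 34 were higher (13.2%, against 9.59% of all tested genes) and 8 lower (3.10%, against 9.62%), and DESeq2 called 18 higher and 3 lower. DESeq2 called 1188 of the 14731 tested genes here. The 5-week libraries lay wholly above TAA for 39 genes (15.1%, against 11.6% of all tested genes) and wholly below for 15 (5.81%, against 13.4%), with a median of 0.11 (0.01 over all genes). Scaling by library totals gave 4 higher and 3 lower (504 calls over all tested genes) with a median of -0.10 (-0.21 over all genes). The 4 calls remained without replicate 27 (240 calls over all tested genes). They fell to 0 without any other single library (0 to 5 over all tested genes). They also fell to 0 with replicates 17, 18 and 23 left out together (7 over all) and with only the 2 compared groups in the fit (1 over all).

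1500017E21Rik, at chr19:36619418-36689479 on the minus strand, is antisense to the ubiquitin ligase gene Hectd2, shares 1834 exon bases with it, and is named Hectd2os in GENCODE. It measured 3.67, 2.64 and 2.28 CPM in TAA, 3.91, 3.89 and 3.76 CPM at 2 weeks and 8.07, 6.59 and 5.86 CPM at 5 weeks. The 5-week libraries stood above both other groups. It rose 2.39-fold at 5 weeks (1.26 ± 0.21, adjusted p = 0.0379), with a 2-week difference of 0.43 (adjusted p = 0.248). Hectd2 itself stood between 0.541 and 1.94 CPM in the 9 libraries and differed by -0.51 at 5 weeks (adjusted p = 0.588).

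0610031O16Rik, at chr3:138210717-138239663 on the minus strand, shares 108 bases antisense with the alcohol dehydrogenase gene Adh7. It measured 2.67, 2.32 and 1.96 CPM in TAA, 2.40, 2.61 and 2.48 CPM at 2 weeks and 6.63, 4.60 and 4.86 CPM at 5 weeks. The TAA and 2-week libraries overlapped, and all 5-week libraries stood above them. It rose 2.32-fold at 5 weeks (1.21 ± 0.20, adjusted p = 0.0379), with a 2-week difference of 0.11 (adjusted p = 0.764). Adh7 differed by -0.06 at 5 weeks (adjusted p = 0.912).

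Further 5-week differences with separate groups did not pass the test. On the higher side these were 1700018L02Rik (1.23 ± 0.34, adjusted p = 0.0974) and 4831440E17Rik (1.07 ± 0.23, adjusted p = 0.0582). 1700018L02Rik, like 3110045C21Rik below, reached a mean of 100 reads in 1 group only. Its mean counts were 68.7 in TAA, 92.3 at 2 weeks and 147.0 at 5 weeks, so the rule favoured this rise. 4831440E17Rik measured 1.14, 1.20 and 1.02 CPM in TAA, 2.52, 1.70 and 2.23 CPM at 2 weeks and 2.82, 2.24 and 1.99 CPM at 5 weeks, above TAA in every rhCYGB library. On the lower side were 3110039I08Rik (-1.33 ± 0.38, adjusted p = 0.112), Lockd (-0.95 ± 0.24, adjusted p = 0.0832), Gm20605 (-0.94 ± 0.47, adjusted p = 0.313), Snhg18 (-0.90 ± 0.37, adjusted p = 0.219), AI662270 (-0.75 ± 0.30, adjusted p = 0.216) and 3110045C21Rik (-0.68 ± 0.31, adjusted p = 0.263). Stellate and myofibroblast markers, the cells that lay down scar, summed to 1402 to 2075 CPM in TAA, 534.0 to 942.9 CPM at 2 weeks and 400.8 to 866.6 CPM at 5 weeks, and the part of that difference in these lower values was not tested.

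The third comparison set the 5-week against the 2-week course. By edgeR's quasi-likelihood test 0 of the 258 genes were called, and 0.0204% of all tested genes were (0.0136% higher and 0.00679% lower). At an unadjusted p under 0.05, 18 were higher (6.98%, against 12.7% of all tested genes) and 21 lower (8.14%, against 10.5%), and DESeq2 called 9 higher and 1 lower. Over all 14731 tested genes DESeq2 called 788. Without replicate 27, edgeR called 9 higher and 12 lower (1889 calls over all tested genes), and without any other single library it called 0 of the noncoding genes. The 5-week libraries lay wholly above the 2-week libraries for 21 genes (8.14%, against 10.9% of all tested genes) and wholly below for 19 (7.36%, against 10.2%), and the median was -0.11 (-0.01 over all genes). Its sign was not stable: the median was 0.08 with the length trend removed, 0.10 without replicates 17, 18 and 23, and 0.00 with library totals.

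The widest separate differences on the higher side were those of Snhg14 (1.59 ± 0.73, adjusted p = 0.221), C730036E19Rik (1.3 ± 0.44, adjusted p = 0.178), 1700001L05Rik (1.13 ± 0.30, adjusted p = 0.158), Ttc39aos1 (1.13 ± 0.23, adjusted p = 0.138), 0610031O16Rik (1.10 ± 0.20, adjusted p = 0.125) and Gm10052 (0.88, adjusted p = 0.424), whose row switches with Hnrnpa1. Ttc39aos1 measured 3.17, 2.54 and 1.76 CPM in TAA, 1.88, 2.19 and 2.23 CPM at 2 weeks and 5.2, 4.17 and 4.45 CPM at 5 weeks, and its 5-week libraries stood above both other groups. On the lower side, after 5033403H07Rik and 3110039I08Rik, came the class I histocompatibility pseudogene H2-K2 (-0.73 ± 0.24, adjusted p = 0.177), 4930481A15Rik (-0.72 ± 0.25, adjusted p = 0.178), BC051226 (-0.69 ± 0.21, adjusted p = 0.175) and Dleu2 (-0.56 ± 0.20, adjusted p = 0.180).

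The noncoding transcripts were short, with a median of 1547 bases against 2746 for all tested genes, and the differences followed length. Across genes, which are not independent replicates, Spearman's rho between log2 difference and length was -0.333 for the 258 genes at 2 weeks (-0.420 for all genes), 0.0271 at 5 weeks (0.0519) and 0.405 for 5 against 2 weeks (0.470). All tested genes were put in 4 length bins of equal size. In the shortest bin (up to 1730 bases), which holds 141 of the 258, the 2-week median was 0.30 for the noncoding genes and 0.29 for all genes. In the longest bin, which holds 33, it was -0.05 for the noncoding genes and -0.23 for all genes. With the trend over length removed from each library, 7 noncoding genes were higher and 2 lower at 2 weeks, with 5033403H07Rik, AW112010, D130020L05Rik and Gm16157 still called and Marcksl1-ps4, Gm10658 and Gm4956 no longer called. At 5 weeks that fit called 15 higher and 0 lower, the 4 named above among them. Over all tested genes the same fit called 850 at 2 weeks and 812 at 5 weeks.

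**Figure D3:**
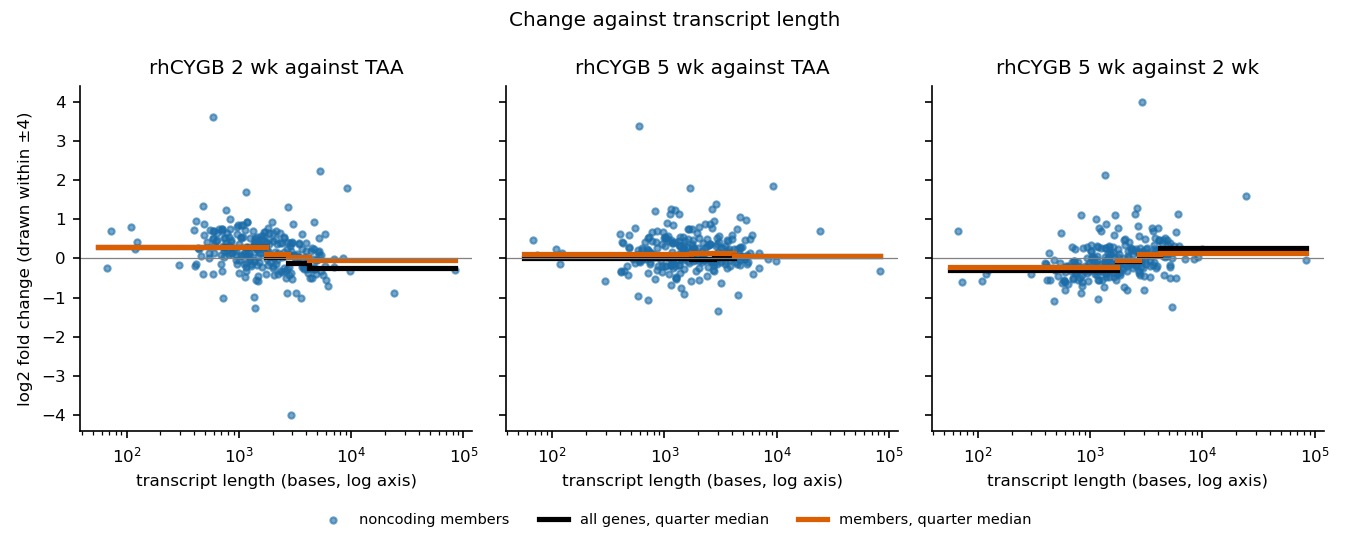
Each point is 1 of the 258 noncoding genes, with mean transcript length in bases on a log axis and the log2 fold change of each comparison on the vertical axis, points beyond 4 drawn at the limit. Lines give the median in each of 4 length bins for all genes (black) and noncoding genes (orange), which ran downward at 2 weeks and upward for 5 against 2 weeks, with noncoding medians of 0.30 and -0.05 in the shortest and longest bins at 2 weeks.

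The genes were also read in lists by role, beginning with 17 hosts of small nucleolar RNAs, whose introns release guides for ribosomal RNA modification. In the comparisons with TAA edgeR called 0 (at an unadjusted p under 0.05 there were 0 at 2 weeks and 1 lower at 5 weeks, and DESeq2 called 0 in both). Their medians were 0.07 at 2 weeks and -0.05 at 5 weeks. Gas5, a growth arrest transcript, measured 31.8, 34.7 and 38.4 CPM in TAA, 42.0, 35.0 and 32.9 CPM at 2 weeks and 32.6, 38.5 and 30.3 CPM at 5 weeks. Its groups overlapped in each comparison. Snhg18 alone had separate groups at 5 weeks, with 6.37, 4.85 and 6.81 CPM in TAA, 3.72, 6.08 and 3.45 CPM at 2 weeks and 1.59, 4.66 and 3.43 CPM at 5 weeks. Snhg1 had a log2 difference of -0.39 ± 0.22 at 2 weeks and was called lower there on the FPKM and library total scales and with the length trend removed. Snhg5 was also called lower at 2 weeks on the FPKM scales, and Snhg6 with the length trend removed. Of 11 proteins of small nucleolar ribonucleoproteins, 0 were called in either comparison by edgeR and 1 lower at 2 weeks by DESeq2 (1 higher and 1 lower at 2 weeks, and 3 lower at 5 weeks, at an unadjusted p under 0.05).

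The list of nuclear and chromatin-bound RNAs had 8 members and 0 calls by edgeR against TAA, with 1 lower at 2 weeks and 2 higher at 5 weeks at an unadjusted p under 0.05. DESeq2 called Tug1 lower at 2 weeks. Neat1 measured 173.1, 181.0 and 231.6 CPM in TAA, 162.3, 198.8 and 223.8 CPM at 2 weeks and 210.0, 123.1 and 249.2 CPM at 5 weeks, and the splicing speckle RNA Malat1 measured 107.8, 81.6 and 86.5, then 92.4, 103.7 and 75.8, then 111.0, 87.4 and 104.5 CPM. For both, the 3 groups overlapped widely. Tug1, a conserved nuclear RNA, measured 30.9, 31.1 and 29.3 CPM in TAA, 20.9, 22.4 and 24.5 CPM at 2 weeks and 31.0, 25 and 29.2 CPM at 5 weeks. Its 2-week libraries lay below both other groups, with a log2 difference from TAA of -0.43 ± 0.12 that edgeR did not call (adjusted p = 0.0782). Firre, an X-linked RNA of nuclear architecture, had 12.7, 11.7 and 11.6 CPM in TAA, 9.82, 10.7 and 11.3 CPM at 2 weeks and 22.3, 13.1 and 15.4 CPM at 5 weeks. It was lower than TAA in all 2-week libraries and higher in all 5-week libraries, with neither difference called. Pvt1, Kcnq1ot1, Ftx and 2900097C17Rik had 2-week differences of 0.20, -0.29, -0.49 and -0.05.

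Neat1 is deposited as a short and a long transcript, and only the long form builds paraspeckles. The long form (20769 bases) took 27.3%, 18.9% and 21.7% of Neat1 reads in TAA, 49.6%, 48.9% and 33.5% at 2 weeks and 21.3%, 49.5% and 16% at 5 weeks. All 2-week shares lay above all TAA shares, and replicate 27 stood apart from the other 5-week libraries. The shares are StringTie's assignment of reads over a shared 5′ end and were not tested. They are shares of reads from forms of 20769 and 3185 bases, not of molecules. The libraries were poly(A)-selected, and how far that selection kept each form was not tested, so the ratio of the forms in the liver is not given.

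Of 6 imprinted noncoding RNAs, read from 1 parental allele, 0 were called by edgeR or DESeq2 and 0 had an unadjusted p under 0.05 in any comparison, with medians of -0.27 at 2 weeks and -0.17 at 5 weeks. Meg3, a growth suppressor studied in stellate cells, measured 6.63, 3.23 and 7.29 CPM in TAA, 8.86, 5.21 and 5.57 CPM at 2 weeks and 1.54, 9.68 and 9.26 CPM at 5 weeks. Within the 5-week group replicate 23 stood far below the others. Its cluster mate Rian had 4.78, 2.57 and 2.93, then 1.41, 0.849 and 2.88, then 1.54, 3.42 and 3.81 CPM. Snhg14, which runs antisense to Ube3a, spread from 0.536 to 6.72 CPM within TAA alone. Airn, Peg13 and Kcnq1ot1 differed by -0.12, -0.26 and -0.29 at 2 weeks.

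MicroRNAs themselves are too short for these libraries, but 14 of the 258 genes, at their deposited positions, hold mature microRNA sequences on their strand, 38 in all by RefSeq (GRCm38.p6). Among the 14, Mir703, Mir3064 and Mir6236 are microRNA genes themselves. Oaz1-ps is counted only through its deposited place at Oaz1 on chromosome 10, as its own locus is on chromosome 17. Capitals mark the seed, bases 2 to 8, which pairs with target messages. Shown are the hosts whose own rows are described next. Mir22hg carries miR-22, Dleu2 carries miR-15a and miR-16, A330023F24Rik carries miR-29b and miR-29c, 3110039I08Rik carries miR-100 and miR-125b, and F630028O10Rik carries the myeloid miR-223. miR-15a and miR-16 share the seed AGCAGCA, and miR-29b and miR-29c, known repressors of collagen messages, share AGCACCA.
miR-22-3p: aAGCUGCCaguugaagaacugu
miR-15a-5p: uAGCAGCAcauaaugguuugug
miR-16-5p: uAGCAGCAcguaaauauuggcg
miR-29b-3p: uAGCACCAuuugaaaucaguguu
miR-29c-3p: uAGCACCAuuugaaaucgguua
miR-100-5p: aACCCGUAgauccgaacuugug
miR-125b-5p: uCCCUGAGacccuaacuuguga
miR-223-3p: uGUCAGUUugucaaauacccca

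Mir22hg measured 14.9, 14.7 and 12.6 CPM in TAA, 10.5, 13.3 and 17.9 CPM at 2 weeks and 40.3, 15.3 and 15.8 CPM at 5 weeks. The 5-week libraries lay above TAA, replicate 23 far above and the others just above, and the difference was 0.76 ± 0.36 (adjusted p = 0.282). Dleu2 measured 5.48, 5.2 and 4.38 CPM in TAA, 9.38, 6.71 and 7.87 CPM at 2 weeks and 4.23, 6.59 and 5.47 CPM at 5 weeks. Its 2-week libraries lay above both other groups (0.67 ± 0.20 against TAA, adjusted p = 0.0952), and DESeq2 called it higher at 2 weeks.

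A330023F24Rik measured 1.67, 2.17 and 1.79 CPM in TAA, 1.74, 2.20 and 2.04 CPM at 2 weeks and 2.78, 2.16 and 2.89 CPM at 5 weeks, and its groups overlapped in both comparisons with TAA. 3110039I08Rik measured 3.27, 1.85 and 2.58 CPM in TAA, 1.57, 2.25 and 1.53 CPM at 2 weeks and 1.11, 1.47 and 0.502 CPM at 5 weeks, with all 5-week libraries below the rest (-1.33 against TAA, adjusted p = 0.112). F630028O10Rik measured 3.01, 1.53 and 1.59, then 1.80, 2.09 and 2.65, then 0.833, 2.03 and 2.04 CPM, and its groups overlapped. Mirt2 stood in the host list by name but holds no mature microRNA. It measured 3.19, 3.63 and 4.56 CPM in TAA, 7.65, 6.96 and 5.31 CPM at 2 weeks and 6.31, 5.99 and 5.97 CPM at 5 weeks, above TAA in every rhCYGB library (0.81 ± 0.19 at 2 weeks, adjusted p = 0.0521). Of the 3 listed hosts (Mir22hg, Dleu2 and Mirt2) edgeR called 0 against TAA and DESeq2 called 2 higher at 2 weeks and 1 at 5 weeks, with 2 higher and 1 higher at an unadjusted p under 0.05. Of 15 proteins of microRNA processing edgeR and DESeq2 called 0 in both comparisons, with 2 lower at 2 weeks and 0 at 5 weeks at an unadjusted p under 0.05.

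The last list holds 12 lncRNAs of liver, stress and the cell cycle. Of these 0 were called at 2 weeks (0 at an unadjusted p under 0.05 and 0 by DESeq2) and 1, 0610031O16Rik, rose at 5 weeks (3 higher and 1 lower at an unadjusted p under 0.05, and 2 higher and 1 lower by DESeq2), with medians of 0.13 and 0.37. Gm10768 measured 196.0, 152.2 and 164.4 CPM in TAA, 177.7, 177.5 and 164.7 CPM at 2 weeks and 277.2, 225.6 and 230.1 CPM at 5 weeks. Its 5-week libraries stood above both other groups (0.52 ± 0.13 against TAA, adjusted p = 0.0837). As given above, the Gm10768 sequence lies in a transcript of Abcc2, which differed by 0.60 at 5 weeks, and the separation of their reads was not tested. Lockd, transcribed downstream of the cell cycle inhibitor Cdkn1b, measured 4.81, 5.01 and 7.20 CPM in TAA, 3.20, 5.03 and 4.73 CPM at 2 weeks and 2.82, 3.52 and 2.45 CPM at 5 weeks. All its 5-week libraries lay below TAA, as did the summed dividing cell markers, at 252.2 to 288.8 CPM in TAA, 128.8 to 179.9 CPM at 2 weeks and 155.5 to 165.1 CPM at 5 weeks, whose part in the Lockd difference was not tested.

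Gm15441, antisense to the glucose-responsive gene Txnip, measured 0.406, 3.41 and 1.09 CPM in TAA, 4.90, 2.09 and 0.931 CPM at 2 weeks and 7.88, 2.72 and 6.35 CPM at 5 weeks. The spread within groups was wide, and the 5-week difference of 1.79 ± 0.77 was not called (adjusted p = 0.241). Txnip, which shares 606 exon bases with it on the opposite strand, rose by 1.94 on the log2 scale at 5 weeks (adjusted p = 0.0379). Gm16551, an lncRNA of hepatic fat synthesis, had 10.9, 9.90 and 6.65, then 8, 3.10 and 3.98, then 10.4, 4.06 and 7.87 CPM, with overlap in each comparison. C730036E19Rik had 26.5, 10.9 and 7.09, then 9.90, 10.8 and 10.5, then 36.3, 16.5 and 24.3 CPM, and its 5-week libraries lay above the 2-week libraries. Gm10319, Fendrr, Gm19619, Airn, Epb41l4aos and Meg3 had 5-week differences between -0.17 and 0.44, none called. Structured RNAs without full poly(A) tails were represented by Rn45s, above, and Mir6236, at 2.06, 1.73 and 1.62, then 2.87, 3.05 and 1.31, then 1.54, 2.92 and 1.51 CPM.

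**Figure D4:**
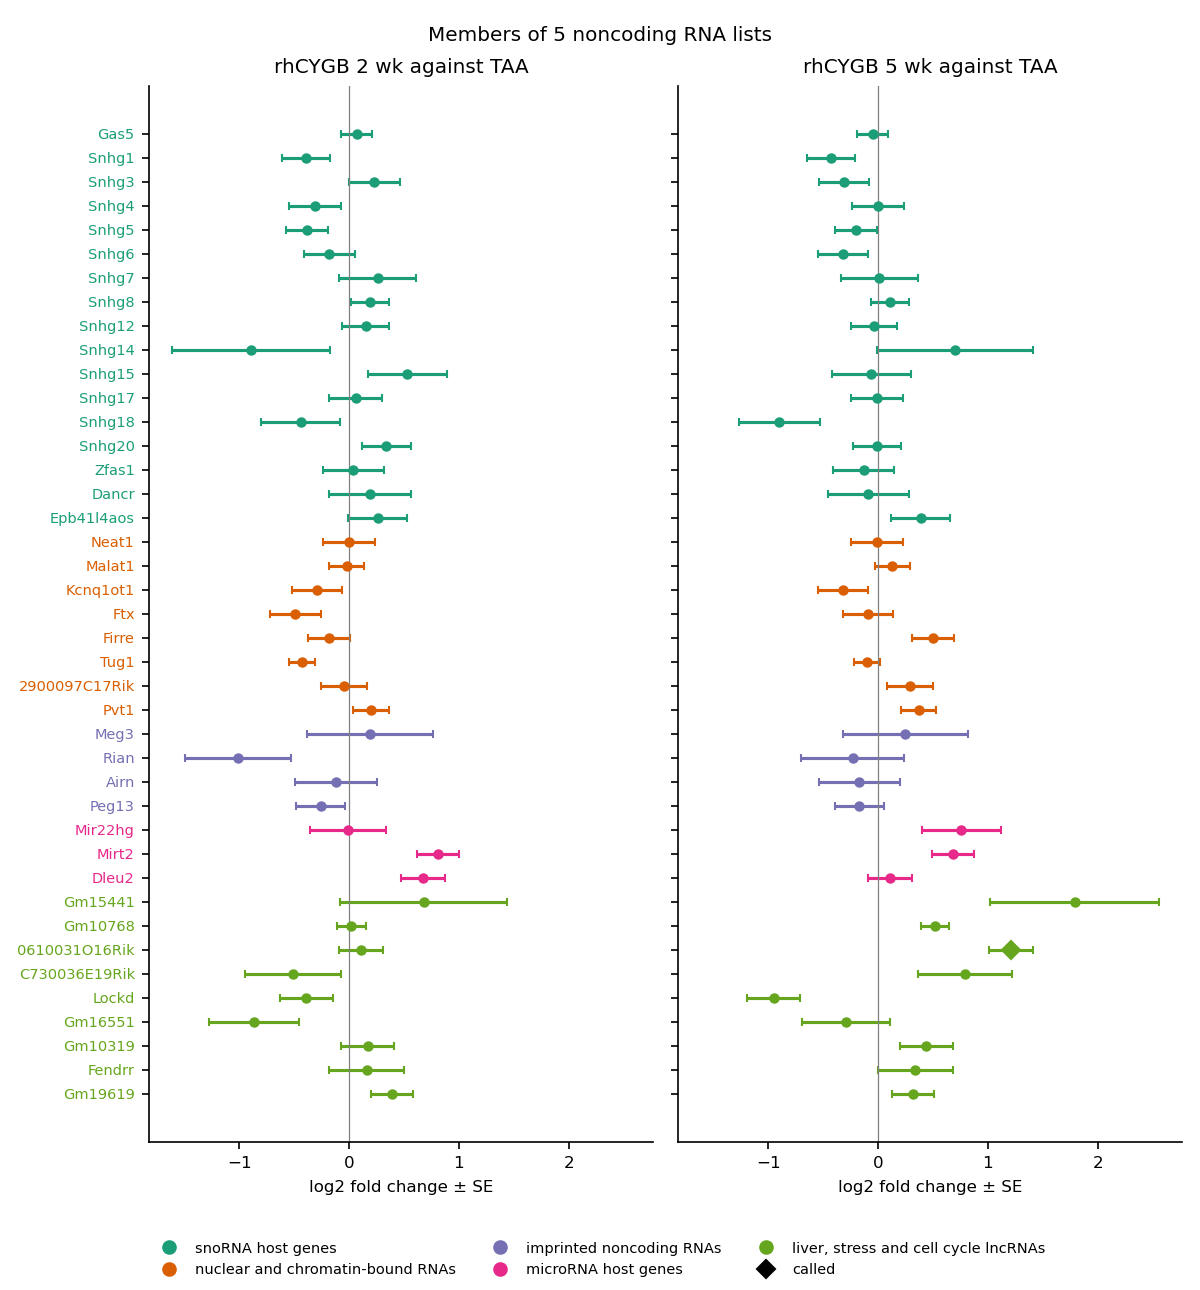
Points give the log2 fold change of 41 listed noncoding genes against TAA at 2 weeks (left) and 5 weeks (right), bars give ± SE, colours give the list, and a gene in several lists is drawn once. The single diamond marks 0610031O16Rik, called at 5 weeks (1.21 ± 0.20), and Tug1 lay at -0.43 ± 0.12 at 2 weeks without a call.

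Antisense partners were read together for 56 pairs in which a noncoding gene and the coding gene on the opposite strand were both tested. The log2 differences had the same sign in 31 pairs at 2 weeks, 28 at 5 weeks and 27 for 5 against 2 weeks. Txnip at 5 weeks was the only one of these partners called in any of the 3 comparisons. By class of overlap, the called genes at 2 weeks were 3 of the 156 without shared exon bases, 3 of the 59 antisense genes and 1 of the 17 that share bases on the same strand. At 5 weeks they were 0, 3 and 1. Of all tested genes, edgeR called 3.31% at 2 weeks and 1.29% at 5 weeks, and so few calls do not rank the classes. None of the 13 rows placed at a coding gene away from their own locus was called by edgeR, while DESeq2 called 1 higher (Oaz1-ps) and 1 lower (the switching row Gm9855) at 2 weeks and 0 at 5 weeks, and 1 higher and 1 lower, then 0, had an unadjusted p under 0.05. Of 6 proteins of the 7SK complex, which holds elongation factor P-TEFb inactive, and 15 of nonsense-mediated decay, which degrades many spliced noncoding RNAs, edgeR called 0 in both comparisons with TAA. DESeq2 called 1 of the 7SK proteins lower at 5 weeks and 0 of the decay proteins, and at an unadjusted p under 0.05 there were 0 and 1 lower 7SK proteins and 2 and 1 decay proteins at 2 and 5 weeks.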

How the data were processed

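Poly(A)-selected, strand-marked libraries (TruSeq Stranded mRNA) of mouse liver were sequenced from both ends, per the labels' protocols. Tools listed in the submitters' processing notes are HISAT2 2.1.0, StringTie 1.3.4d and FastQC 0.11.7, with the build mm10. The deposited tables give estimated counts of reads per gene and transcript, whole numbers per the file headers, which served as the main values. The deposited FPKM columns served as an alternative and for levels per length. The strand setting of the counting is not given in the sources used here, and an assignment between near-identical copies can follow the counting, so pseudogene rows at a coding gene, near copies and antisense genes are uncertain as single genes.

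Low genes were removed with filterByExpr at its defaults (10 reads, 15 in total), libraries were scaled by TMM and genes were tested in 1 fit of 9 libraries and 3 groups (6 residual degrees of freedom) by the quasi-likelihood test of edgeR 4.0.16 (R 4.3.3), adjusted by Benjamini-Hochberg over all 14731 tested genes, with calls at an adjusted p under 0.05. Each SE was obtained from the log2 change and its F statistic, as their ratio after taking the root of F. Levels are TMM-scaled CPM. The script was tested on simulated data. Total counts ran from 55655727 to 87289945, and the common biological coefficient of variation was 24.9%. Groups came from the sample titles and share no replicate number.

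Loci were compared with RefSeq (GRCm38.p6) and GENCODE M21 (GRCm38), where 238 genes matched by identifier or position, and copies were found with blastn 2.17.0. Alternatives were other scalings, filters, thresholds and fits, DESeq2 1.42.0, limma 3.58.1 on FPKM, removal of the length trend, and left-out libraries. The addition of rows to their coding gene was chosen after seeing the data.

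The genes and lists were chosen with earlier results of these data known. Named were every called gene, the 10 highest by mean CPM and 6 by mean FPKM, the 6 widest rises and falls with separate groups in each comparison, every listed gene, 4 genes on each side of the count threshold, and called partner proteins, of which 1 result is not reported here. Coding partners, neighbours, switching or copied rows and microRNA hosts outside the lists were chosen after their values were seen.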

Additional observations from a re-analysis of the deposited data

Results flagged for a closer look

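Firre was singled out because its difference from TAA ran in opposite directions in the 2 rhCYGB groups. It measured 12.7, 11.7 and 11.6 CPM in TAA, 9.82, 10.7 and 11.3 CPM in the 2-week libraries and 22.3, 13.1 and 15.4 CPM in the 5-week libraries. All 2-week libraries lay below all TAA libraries and all 5-week libraries lay above them. The log2 differences from TAA were -0.18 at 2 weeks (adjusted p = 0.585) and 0.50 at 5 weeks (adjusted p = 0.186), and the shared TAA libraries enter both. The difference between the rhCYGB groups, 0.68 ± 0.19 on the log2 scale, did not pass edgeR's quasi-likelihood test (adjusted p = 0.162), and DESeq2 called it. Replicate 23, the highest for Firre, stood apart on the first principal component of all genes, and its part in the difference was not tested.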

How the results depend on the processing

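No paired analysis was possible because the groups share no replicate number. The number of noncoding genes called at 2 weeks was 7, and it was 17 with scaling by library totals, 24 and 18 on log2(FPKM + 1) and log2(FPKM + 0.1), 28 by DESeq2, 4 among genes averaging at least 500 reads and 0 without replicates 17, 18 and 23 together. Without single libraries it ran from 0 to 14. At 5 weeks it was 4, and it was 7 with library totals, 15 with the length trend removed, 9 on either FPKM scale, 21 by DESeq2, 1 at 500 reads or more, 0 with only the compared groups in the fit, 0 without replicates 17, 18 and 23, and from 0 to 4 without single libraries. For 5 against 2 weeks it was 0, with 10 by DESeq2 and from 0 to 21 without single libraries. Over all tested genes, leaving out single libraries gave 1 to 1095 calls at 2 weeks, 0 to 240 at 5 weeks and 1 to 1889 for 5 against 2 weeks. Over all tested genes the main fit called 488 at 2 weeks, 190 at 5 weeks and 3 for 5 against 2 weeks. In that order DESeq2 called 1713, 1188 and 788, library totals 1722, 504 and 3, and log2(FPKM + 1) 1983, 1001 and 5. The larger noncoding counts under these settings thus came with larger counts over all genes. The 2-week median of 0.19 became -0.15 with library totals and -0.13 on log2(FPKM + 0.1), and ran from 0.12 to 0.23 without single libraries. With the length trend removed it was 0.11, where that of all genes was 0.06. Without single libraries the 5-week median ran from 0.02 to 0.16 and that for 5 against 2 weeks from -0.19 to -0.04. The last turned to 0.08 with the length trend removed and 0.10 without replicates 17, 18 and 23. With rows added to their coding gene (242 genes) the counts were 7, 4 and 0. All of the 7 calls at 2 weeks were also made by DESeq2 and 5 of them with library totals, and all of the 4 at 5 weeks were made by both. The cause of these shifts was not tested, apart from the fewer libraries or genes that some settings hold by construction. A difference that missed the threshold with 3 libraries in a group is not shown to be absent, and genes near 1 CPM rest on few reads.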
